A study of Mus musculus with 24 samples.

Results

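Monomethylation of histone H3 at lysine 4 (H3K4me1) was examined at 3176 autosomal regions of mouse haematopoietic progenitors that carried the mark in both Utx WT libraries but neither PU.1 nor open chromatin. The H3K4me1 islands of the 2 Utx WT libraries were merged, giving 55861 autosomal regions, of which 39058 had an island in both libraries. Regions were selected on these deposited Utx WT islands and peaks: a region was kept when it shared no base with an island of the 3 PU.1 Utx WT libraries or with a peak of the 4 Utx WT empty-vector ATAC-seq libraries. The 3176 regions left were 8.13% of the 39058 and are called PU.1-free closed regions. The others fell into 8446 regions with PU.1 only, 1726 that were open only and 25710 with both. Because an island in both libraries was required, the number was 6057 when Utx WT library 1 was left out and 7357 when library 2 was left out. The same rule gave 54 regions on X and 3 on Y, which were set aside. Kdm6a, the gene of Utx, lies on X, and peak lists do not show whether its product is present.

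All cells were lineage-negative bone marrow progenitors (HSPCs) that a lineage depletion kit had enriched from C57BL/6 mice. The H3K4me1 ChIP-seq covered 2 libraries labelled UTX KO and 2 labelled UTX WT, and the PU.1 ChIP-seq covered 3 of each genotype. ATAC-seq set B comprised UTX KO and UTX WT cells that all carried Cas9, each with a Smarca4 gRNA or an empty vector, with 2 libraries per group. Set A comprised UTX WT cells with Cas9 and a Chd4 gRNA or an empty vector, again with 2 libraries each. Set A cells were, per the labels, grown for 7 days in semi-solid medium and 5 days in liquid culture and analysed 6 days after editing, and the ChIP labels describe no culture, so openness and H3K4me1 may not come from cells in the same state. Nothing in the labels tells whether libraries of a group came from different mice or cultures, so every p-value below measures only the spread between libraries. Age and the design of the Utx KO allele are not given in the sources used here.

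H3K4me1 is written by the MLL3 and MLL4 methyltransferases and marks enhancers, both active and inactive ones, and the flanks of promoters. UTX (Kdm6a) removes methyl groups from lysine 27 of histone H3 and belongs to the same complexes as MLL3 and MLL4. PU.1 (Spi1) is an ETS factor of myeloid and lymphoid progenitors that binds GAGGAA-like sites and is often found together with H3K4me1. Smarca4 (Brg1) is an ATPase of the SWI/SNF remodelling complexes and Chd4 that of the NuRD complex.

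Within the set, regions at gene starts that kept H3K4me1 in Utx KO cells and those that did not differed in CpG content. The 250 bases before the annotated start of 5 genes are shown for this, read 5′ to 3′ on the strand of the gene from the RefSeq table of GRCm38.p6, with every CG dinucleotide in capitals. Sox2, a transcription factor of stem and neural cells, starts at a region that both Utx KO libraries kept, and its window is chr3:34649745-34649994 on the plus strand with 27 CG dinucleotides. Wnt3, a secreted signalling protein, has the window chr11:103773925-103774174 on the plus strand with 22, and Nkx2-5, a cardiac transcription factor, has chr17:26841566-26841815 on the minus strand with 8. Both of these regions were also kept in both Utx KO libraries. Epb42, which encodes the red cell membrane protein 4.2, has chr2:121036878-121037127 on the minus strand with 2 CG dinucleotides, and Kel, the Kell blood group protein, has chr6:41704326-41704575 on the minus strand with 1. The Epb42 and Kel regions had no island in either Utx KO library.
Sox2: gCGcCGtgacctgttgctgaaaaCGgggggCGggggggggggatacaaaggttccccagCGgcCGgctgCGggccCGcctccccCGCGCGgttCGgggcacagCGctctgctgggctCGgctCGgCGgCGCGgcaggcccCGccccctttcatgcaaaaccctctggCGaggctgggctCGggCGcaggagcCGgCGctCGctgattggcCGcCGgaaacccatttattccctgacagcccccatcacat
Wnt3: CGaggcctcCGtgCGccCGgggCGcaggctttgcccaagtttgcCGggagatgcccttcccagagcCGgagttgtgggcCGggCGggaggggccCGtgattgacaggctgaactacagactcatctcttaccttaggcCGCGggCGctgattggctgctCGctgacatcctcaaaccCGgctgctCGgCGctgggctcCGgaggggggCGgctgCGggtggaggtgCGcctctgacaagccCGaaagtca
Nkx2-5: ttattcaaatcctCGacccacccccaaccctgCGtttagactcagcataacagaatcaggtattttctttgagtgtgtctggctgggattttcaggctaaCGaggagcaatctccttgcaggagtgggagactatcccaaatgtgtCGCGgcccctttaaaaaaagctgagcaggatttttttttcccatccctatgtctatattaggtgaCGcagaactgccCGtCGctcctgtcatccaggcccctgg
Epb42: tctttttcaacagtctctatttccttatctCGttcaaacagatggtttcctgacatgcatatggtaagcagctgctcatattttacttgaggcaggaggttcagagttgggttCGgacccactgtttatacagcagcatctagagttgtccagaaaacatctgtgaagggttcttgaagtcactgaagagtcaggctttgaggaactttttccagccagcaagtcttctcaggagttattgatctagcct
Kel: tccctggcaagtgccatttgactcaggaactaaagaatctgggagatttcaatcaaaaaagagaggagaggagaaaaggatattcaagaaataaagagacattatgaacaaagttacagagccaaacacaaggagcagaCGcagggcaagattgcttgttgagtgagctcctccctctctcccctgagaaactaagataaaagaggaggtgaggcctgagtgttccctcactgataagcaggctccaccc

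PU.1-free closed regions were short. Their median width was 2999 bp, with 50% of them between 1999 and 4199 bp and the widest at 21399 bp, against medians of 3599 bp with PU.1 only, 3199 bp when open only and 5599 bp with both. Together they covered 10.8 Mb of the 258 Mb in the 39058 regions. Longer regions have more room to meet an island or peak, and the PU.1 islands and ATAC peaks used by the rule covered 160 Mb and 46.1 Mb, so the rule itself favours short regions and these widths carry no test. Leaving out Utx WT library 2 lowered the median width to 1799 bp.

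**Figure D1:**
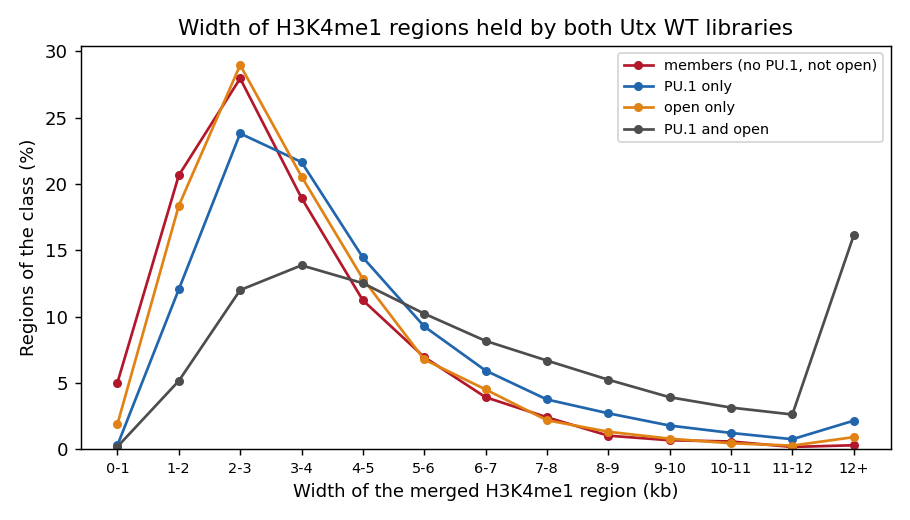
Share of the regions of each class (y, %) against the width of the merged region in 1 kb steps (x), for H3K4me1 regions held by both Utx WT libraries. PU.1-free closed regions (red) and open-only regions peak at 2 to 3 kb, and regions with PU.1 and openness extend furthest beyond 12 kb.

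The mark was weak over these regions, and their reads per kb were on the low side of the lists. With the Utx WT library 1 list split into 4 equal parts by reads per kb, 1166 regions fell in the least dense and 580 in the most dense. By library 2 these numbers were 1098 and 419. Column 4 of each island, taken as its reads, gave a median of 28.0 reads per kb in Utx WT library 1 and 37.1 in library 2. Regions with PU.1 only had 28.0 and 38.5, open-only regions had 31.3 and 41.3, and regions with both had 32.2 and 48.6. Ranked by reads within its own list, the median region stood at percentile 32.3 in library 1 and 31.9 in library 2, against 66.1 and 72.6 with both. The difference in rank thus came with a difference in width, while reads per kb were close to those of regions with PU.1 only. The widest, 21399 bp inside Shoc2 (a scaffold of RAS to RAF signalling), had no island in Utx KO library 1 and 73 reads in library 2. It had 227 and 738 reads in the Utx WT libraries. Neither the region inside Vmp1, an autophagy membrane protein, nor that inside Ecpas, a proteasome adaptor, had an island in Utx KO cells. In the Utx WT libraries the Vmp1 region stood at percentiles 91.6 and 95.2 and the Ecpas region at 93.4 and 93.3. Other wide or highly ranked regions kept the mark in both Utx KO libraries. The region of N4bp2l2 had 439 and 632 reads in Utx KO cells and stood at percentiles 92.3 and 93.0 in Utx WT cells, and that of Scaf4 had 142 and 580 reads in Utx KO cells and stood at 92.8 and 91.3 in Utx WT cells. The region inside Ulk4, a kinase-like protein, was 16999 bp wide and had 202 and 426 reads in Utx KO cells and stood at percentiles 92.1 and 42.8 in Utx WT cells.

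Gene bodies held the largest part of the PU.1-free closed regions. The number inside a gene body was 1589 (50.0%), 691 (21.8%) lay at a gene end, that is 1 kb or less from it, and 896 (28.2%) were intergenic. The share in gene bodies was close to the 47.4% with PU.1 only, and it was 36.0% when open only and 30.3% with both. The share at gene ends was 15.8% with PU.1 only, 42.3% when open only and 45.9% with both. The nearest PU.1 island of Utx WT cells was a median of 3.80 kb away, the nearest ATAC peak 9.75 kb and the nearest other H3K4me1 region 7.40 kb. Their share of the H3K4me1 regions of an autosome lay between 7.04% on chromosome 9 and 9.54% on chromosome 5. The 3176 regions were nearest to 2572 genes, 2123 of which had 1 such region and 27 had 4 or more.

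In Utx KO cells a minority of these regions had an H3K4me1 island. The Utx KO libraries held 929 (29.3%) and 1166 (36.7%) of the 3176, a mean of 33.0% ± 5.28 (SD, n = 2). Neither library held 1895 (59.7%), called lost below, against 16.2% of all 39058 regions. Both libraries held 814 (25.6%), against 72.6% of all regions, and 467 were held by 1 library, 115 by library 1 and 352 by library 2. The mean share was lower than the 58.3% ± 10.1 of regions with PU.1 only, the 64.3% ± 3.73 of open-only regions and the 91.2% ± 2.77 of regions with both, with differences of -25.3, -31.4 and -58.3 percentage points. Each Utx KO library showed each of these differences, and the exact sign-flip test over the 2 libraries gave the two-sided p = 0.5, the smallest it can give. Lost regions made up 30.7% of those with PU.1 only, 28.8% of open-only regions and 5.23% of those with both. Every class was chosen in Utx WT cells, so islands missing from Utx KO cells were counted and islands missing from Utx WT cells were not.

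**Figure D2:**
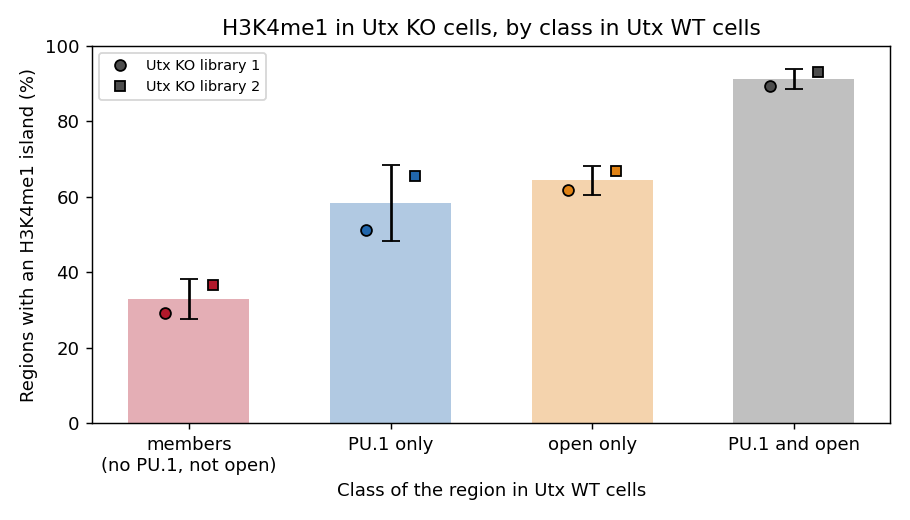
Share of regions with an H3K4me1 island in Utx KO cells (y, %) by class in Utx WT cells (x); points are the 2 Utx KO libraries, bars their mean and error bars the SD. In both libraries PU.1-free closed regions are lowest, at 29.3% and 36.7%.

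The rule was therefore also applied the other way round. With set B ATAC-seq alone, since set A has no Utx KO cells, the rule applied to Utx KO cells gave 1412 regions, of which 210 (14.9%) had no island in either Utx WT library. Applied to Utx WT cells with set B alone it gave 3310 regions, of which 1934 (58.4%) had none in either Utx KO library. Over all H3K4me1 regions the same shares were 3.60% from Utx KO to Utx WT cells and 16.2% from Utx WT to Utx KO cells. The asymmetry was thus present in all regions and was shared by this class. Island reads summed to 7.80 and 8.63 M in the Utx KO libraries and to 6.93 and 14.2 M in the Utx WT libraries, and the part of depth in the asymmetry was not tested. Of the 1412 regions (Utx KO rule), 538 touched 539 of the 3176 regions, which were chosen with set A as well. The Utx KO rule requires an island in both Utx KO libraries, which only 814 of the 3176 had.

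Where an island remained, it mostly still spanned the region. At the PU.1-free closed regions with an island, it covered a median of 76.5% of the region in Utx KO library 1 and 88.0% in library 2. The medians were 65.6% and 80.6% with PU.1 only, 75% and 86.4% when open only, and 73.1% and 85.7% with both. The regions kept in both Utx KO libraries had been denser in Utx WT cells, with medians of 35.0 and 43.5 reads per kb in the Utx WT libraries, against 26.4 and 35.5 at lost regions. They were also shorter, with a median of 2399 bp against 3199 bp.

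Width separated this class from regions with PU.1. Among PU.1-free closed regions, 41.4% of those under 2 kb were lost, then 64.0% at 2 to 4 kb, 70.6% at 4 to 8 kb and 58.9% of the 90 at 8 kb or more. With PU.1 only the share decreased with width, with 47.0%, 32.4%, 25.1% and 20.4% over the same widths, and with both it was 16.3%, 9.06%, 4.25% and 1.33%. Open-only regions went the way of the PU.1-free closed ones, with 24.3%, 27.4%, 33.8% and 36.4%. Reads per kb ran in 1 direction in all classes. With the Utx WT library 1 list split into 4 equal parts, from the least to the most dense, 74.4%, 67.9%, 54.6% and 23.3% of the PU.1-free closed regions were lost, against 39.5%, 31.0%, 24.8% and 15.4% with PU.1 only. By library 2 density the PU.1-free closed regions gave 69.3%, 66.6%, 55.1% and 27.0%. When each ChIP list was cut to its upper 50% by reads, 1074 regions met the rule, with a median width of 5599 bp, and 781 (72.7%) were lost, against 17.7% of all regions so chosen.

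**Figure D3:**
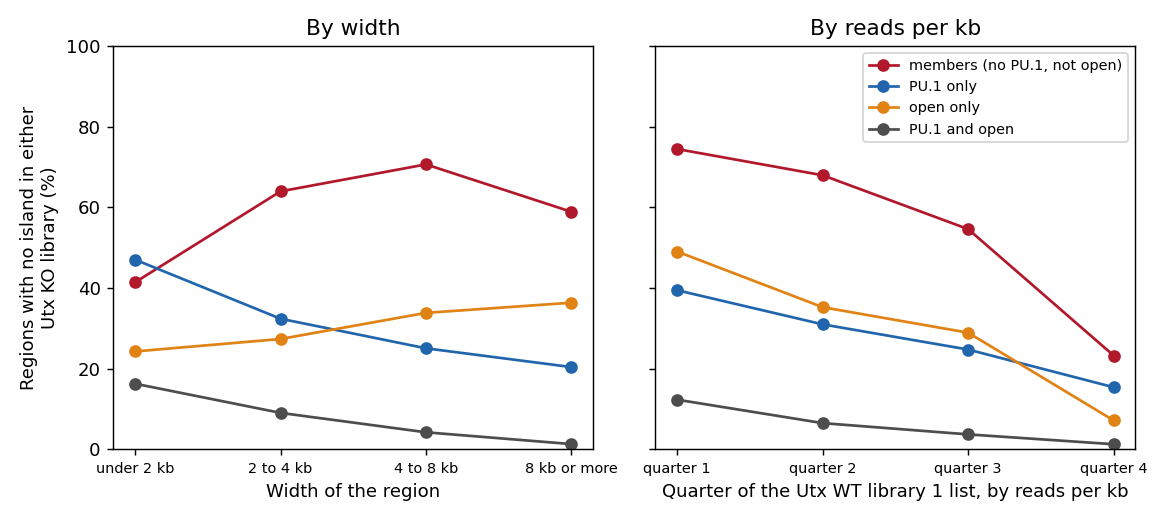
Share of regions with no island in either Utx KO library (y, %) by width (left) and by the 4 equal parts of the Utx WT library 1 list ranked on reads per kb (right), for the 4 classes. The red line of PU.1-free closed regions climbs to 70.6% at 4 to 8 kb on the left, where the PU.1-only line declines, and all lines decline on the right.

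Regions at gene ends kept the mark more often than the rest at each width that could be compared. Of the 691 regions at gene ends 32.6% were lost, against 71.4% of the 1589 in gene bodies and 59.7% of the 896 intergenic ones. Under 2 kb the share was 14.8% at gene ends, 60.9% in gene bodies and 40.2% between genes. At 4 to 8 kb it was 50.0%, 74.6% and 74.4%. With PU.1 only the shares were 17.2% at gene ends, 34.0% in gene bodies and 32.3% between genes.

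At annotated start sites the share that was lost varied with CpG content. Start positions were at hand for 80.1% of protein-coding genes (none on chromosome 18), and 329 of the PU.1-free closed regions covered at least 1. Both Utx KO libraries kept 221 of these (67.2%), 60 were kept by 1 library and 48 (14.6%) were lost. The 250 bases before the start held a median of 17 CG dinucleotides where both libraries kept the region and 3 where it was lost, against 10 over all 20084 windows in the table. Regions with under 5 CG dinucleotides were lost in 26 of 49 cases (53.1%), those with 5 to 9 in 14 of 56 (25%), those with 10 to 14 in 5 of 58 (8.62%) and those with 15 or more in 3 of 166 (1.81%). Reads per kb in Utx WT library 1 also increased over these groups, from a median of 28.8 in the lowest to 36.7 in the highest, and widths decreased from 3799 to 2199 bp, so these features cannot be told apart here. In the lowest group of the other classes 17.0% were lost with PU.1 only, 22.2% when open only and 2% with both. With PU.1 only, more were lost at 5 to 9 CG dinucleotides, 23.7%. The highest group was lost in 0.847% of regions with PU.1 only and in none of 264 open-only regions and none of 3288 with both. The hexamer GAGGAA or its reverse complement TTCCTC, the core of PU.1 sites, occurred in 22.1% of the windows at PU.1-free closed regions, against 23.8% with PU.1 only, 16.4% when open only, 22.7% with both and 22.4% of all windows. The open-only windows had the lowest share, and a hexamer match is not a bound site.

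**Figure D4:**
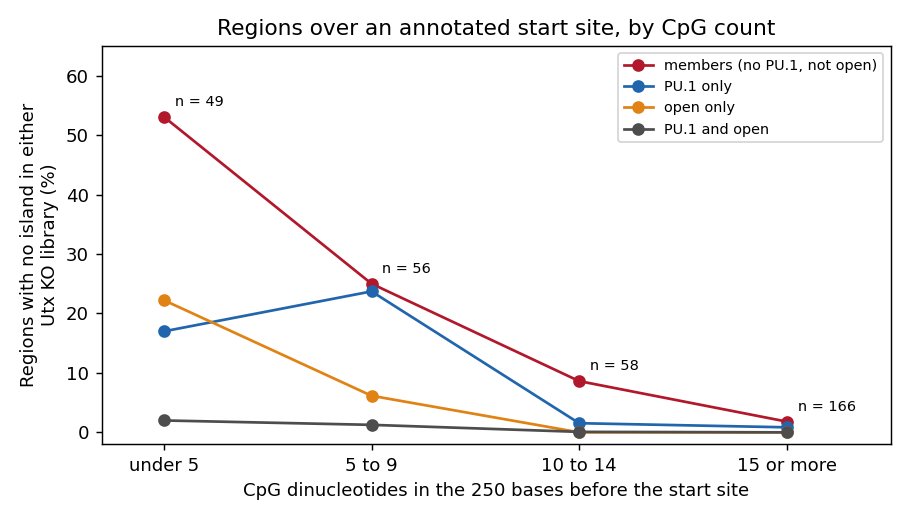
Share of start-site regions with no island in either Utx KO library (y, %) by the number of CG dinucleotides in the 250 bases before the start (x), for the 4 classes, with n for PU.1-free closed regions. Their line declines from 53.1% in the lowest group to 1.81% in the highest.

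Start-site regions that kept H3K4me1 belonged to several gene families. The gene families here were chosen after their values were seen and are given as a description. Both Utx KO libraries kept 67.2% of all 329 start regions and 84.3% of the 166 with 15 or more CG dinucleotides. Against these shares, counts this small cannot set a family apart. All 3 Sox starts in the set (Sox2, Sox11 and Sox14, transcription factors of embryonic and neural cells), all 3 Wnt starts (Wnt3, Wnt4 and Wnt5b, secreted ligands) and both Hox starts (Hoxa13 and Hoxd1, positional regulators) were kept in both Utx KO libraries. At Sox2 the islands held 101 and 156 reads in Utx KO cells and 138 and 210 in Utx WT cells. At Wnt3 they held 82 and 161 reads in Utx KO cells and 149 and 144 in Utx WT cells. At Nkx2-5 they held 55 and 179 reads in Utx KO cells and 152 and 188 in Utx WT cells. All 4 libraries had an island touching each of these 3 regions. A start counts as kept when an island touched its region, and the island need not cover the start itself. Of 8 starts of potassium channel genes 6 were kept by both libraries, near the 67.2% of all 329 start regions. Of 7 of calcium channel genes 6 were kept, the exception being Cacna1c, which had no island in Utx KO cells, against 93 and 201 reads in Utx WT cells. All 3 synaptotagmin starts (Syt2, Syt6 and Syt16, calcium sensors of vesicle release) were kept, and 2 of 3 of serotonin receptors.

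Lost starts, again chosen after their values were seen, included genes of red cells. Epb42 had no island in either Utx KO library, against 60 and 198 reads in the Utx WT libraries over a region of 7399 bp. Kel again had none in Utx KO cells, against 151 and 409 reads in Utx WT cells over 7999 bp. Among globin genes, the starts of Hbb-bs, an adult beta globin, and of Hbq1b, a theta globin, were in lost regions with 71 and 140 and with 78 and 339 reads in Utx WT cells. Pln, the phospholamban of muscle, was lost from a region of 9799 bp with 266 and 584 reads in Utx WT cells. Of 3 collagen starts, Col1a2 was lost, with 71 and 58 reads in Utx WT cells. Col4a1 and Col4a2 start in the same region, which was kept in both Utx KO libraries.

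Some genes were the nearest to several of these regions, at any distance, and most of those were lost. Mboat2, a lysophospholipid acyltransferase, contained 6 between chr12:24840601 and chr12:24944799, and all 6 were lost. In the Utx WT libraries they held 36 and 172, 96 and 177, 113 and 283, 55 and 127, 170 and 245, and 104 and 214 reads, in order along the chromosome. Of the 5 other H3K4me1 regions nearest to Mboat2, 2 were lost. Both Utx KO libraries kept islands over the left end of the gene and beyond its right end. Inside it, library 1 had among others an island at 56.6 to 60.0 kb and library 2 had 1 at 57.0 to 63.0 kb from the left end.

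**Figure D5:**
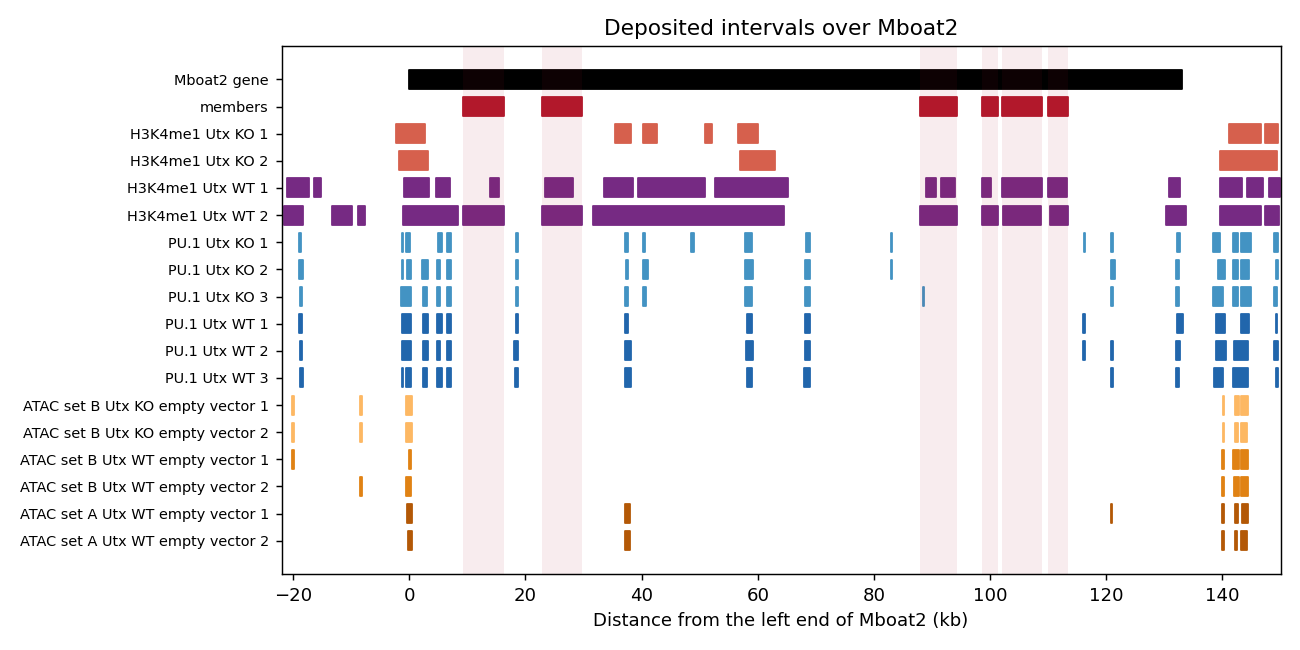
Deposited intervals over Mboat2, placed by distance from the left end of the gene in kb (x), one row per library with Utx KO above Utx WT; red bars and bands mark the 6 PU.1-free closed regions. Both H3K4me1 Utx WT rows have islands in each band, and both H3K4me1 Utx KO rows are empty there.

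Over the 27 genes with 4 or more PU.1-free closed regions, 96 of 120 such regions were lost, against 64 of 216 other H3K4me1 regions of the same genes (29.6%), and 14 of the 27 genes lost every one. Lrba, a BEACH-domain protein of vesicle traffic, Fig4, a phosphoinositide phosphatase, and Ptpn14, a tyrosine phosphatase, each lost 5 of 5. The Lrba regions had between 38 and 143 reads in Utx WT library 1 and between 91 and 261 in library 2, and none of the other 4 regions of Lrba was lost. Tnrc6b, a partner of Argonaute in microRNA silencing, lost 5 of 6, with the exception at chr15:80909401-80914399, which held 99 and 82 reads in Utx KO cells and 111 and 318 in Utx WT cells. Khdrbs3, an RNA-binding protein, and Ercc6l2, a DNA repair helicase, each lost 4 of 4. Mad1l1, a spindle checkpoint protein, held the most, 7, of which 4 were lost and 2 kept in both libraries. One of those, chr5:140215201-140217999, lay in islands of 611 and 871 reads in Utx KO cells, which reach beyond the region, and of 65 and 77 reads in Utx WT cells. Ranked in their own lists these stood at percentiles 96.3 and 97.5 in Utx KO cells, against 37.4 and 23.2 in Utx WT cells.

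Regions kept in both Utx KO libraries were found in several transcription factor genes of lymphocytes. Tcf7, the T cell factor TCF-1, kept both of its regions. The first, chr11:52264001-52270399, had 88 and 463 reads in Utx KO cells and 129 and 218 in Utx WT cells. Its neighbour, chr11:52271401-52278599, had 166 and 463 reads in Utx KO cells and 139 and 198 in Utx WT cells, and in library 2 of the Utx KO cells 1 island reached over both. Pax5, the B lineage factor, kept both regions too. The one at its gene end, chr4:44710401-44714799, had 170 and 749 reads in Utx KO cells and 133 and 181 in Utx WT cells. Ikzf2 (Helios) kept 2 of 3, and Bcl11b, a T cell factor, kept 1 of 2 in both libraries and 1 in a single library. Outside lymphoid genes, Wipi2, an autophagy protein, kept 2 of 2 and Camta1, a calmodulin-binding transcription activator, 2 of 4. Zfp386 and Dad1 owe their 5 regions each to being nearest to the immunoglobulin heavy chain and T cell receptor alpha loci, where 5 of 17 and 5 of 18 H3K4me1 regions belonged to the class.

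Gene lists for blood lineages are described by counts. Of 76 regions nearest to the 15 erythroid genes with a region, 9 (11.8%) were PU.1-free and closed, of which 7 were lost, 2 were kept by 1 library and none by both. They included both regions of Sox6, a silencer of embryonic globin genes, with 40 and 76 and with 68 and 155 reads in Utx WT cells. Slc4a1, the band 3 anion exchanger, had a region of 11799 bp with no island in Utx KO library 1. It held 50 reads in Utx KO library 2, against 204 and 385 in Utx WT cells. Of the 137 regions of stem cell regulators 9 (6.57%) belonged to the class and 6 were lost, among them both regions of Meis1, a homeobox factor of stem cells, with 46 and 119 and with 55 and 112 reads in Utx WT cells. The megakaryocyte list had 4 of 64 (3 lost) and the mast cell list 2 of 47 (both lost), 1 of them intergenic and 122788 bp from Kit, the stem cell factor receptor, with 65 and 89 reads in Utx WT cells. The T and NK cell list had 7 of 51 (13.7%), of which 3 were lost and 3 kept by both, and the B cell list 5 of 86, of which 2 were lost and 2 kept by both. The monocyte list had 6 of 117 with 2 lost. Of these 6, 3 were nearest to Zeb2, a transcription factor, 1 of them in its gene body and 2 at 293559 and 1115559 bp from it. No region of the granulocyte list (25 regions) or of the immediate early and AP-1 list (48 regions) was PU.1-free and closed. Chromatin regulators had 17 of 178 (9.55%), of which 11 were lost, including 3 of 3 nearest to Rybp, a subunit of variant Polycomb complexes, whereas Jarid2, a Polycomb partner, had 1 of 3 lost. Stroma and endothelium genes had 6 of 64 (4 lost), neuronal adhesion genes 5 of 43 (1 lost), growth genes 9 of 198 (4 lost) and housekeeping genes 1 of 33 (none lost). Most lists are too small to set against 8.13% and 59.7% of the whole class. Among progenitor genes, Kit was nearest to 18 H3K4me1 regions in Utx WT cells and Meis1 to 13. Cdk6 was nearest to 7, Cd34 to 3 and Mpo, the myeloid peroxidase, to 1. These regions were counted at any distance, so the counts do not check the cell type.

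PU.1 reached few of the regions in Utx KO cells. Its islands were found at 318 (10.01%), 162 (5.10%) and 280 (8.82%) in the 3 Utx KO libraries, a mean of 7.98% ± 2.56 (SD, n = 3), and at none in Utx WT cells by choice. Open-only regions, which also lack PU.1 in Utx WT cells, gave 17.5% ± 5.22, and the difference of PU.1-free closed minus open-only regions was -9.56 percentage points (lower in 3 of 3 libraries, exact sign-flip test, two-sided p = 0.25, the smallest it can give). All 3 libraries had PU.1 at 86 regions (2.71%), against 4.39% of the 4902 H3K4me1 regions with none in Utx WT cells. Over all regions with a PU.1 island in a Utx KO library, the islands were weak, with a median rank at percentile 19.4, 20.4 and 21.2 of their lists and median widths of 399, 599 and 498 bp. When an island had to cover 50% of the region, the mean share was 0.206%. Size limits this share, so it does not measure strength. The median island was 599 bp wide in each PU.1 Utx KO list, and the regions so chosen had a median of 2799 bp. Of the 86 regions with PU.1 in all 3 Utx KO libraries, 2 lay in Snx29, a sorting nexin. They were at chr16:11576801-11585999 and chr16:11586601-11592799, and both had lost H3K4me1. Others were at Agpat4, an acyltransferase of lipid synthesis, and Tcf7l2, a mediator of WNT signalling. H3K4me1 was lost at 61.5% of the 2704 regions with PU.1 in no Utx KO library, at 52.6% with 1, at 44.0% with 2 and at 44.2% of the 86 with 3. Widths increased along the same order, with medians of 2799 bp with none and 4499 bp with 3.

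Openness in Utx KO cells was rarer still. In the empty-vector libraries 55 (1.73%) and 57 (1.79%) of the regions had an ATAC peak, a mean of 1.76% ± 0.0445 (SD, n = 2). Both libraries opened 34 (1.07%), against 0.921% of the 11622 H3K4me1 regions closed in Utx WT cells. The mean share was 2.88% when set B Utx WT library 1 was left out of the rule, 2.68% when library 2 was and 1.09% without H3K4me1 Utx WT library 2. Of these 34 regions 18 (52.9%) were at gene ends, against 21.1% of the 3098 regions open in no Utx KO library, and 13 had lost H3K4me1. Among the 34 were regions nearest to Sema3d, a secreted guidance cue, Mdga1, a neuronal adhesion protein, Ugt1a2, a glucuronosyltransferase, and Plpp1, a lipid phosphatase. None of the 34 had PU.1 in all 3 Utx KO libraries.

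With the Smarca4 gRNA in Utx KO cells fewer of the regions were open, a difference the number of libraries cannot test. The Smarca4 gRNA libraries had 46 (1.45%) and 31 (0.976%) open regions, a mean of 1.21% ± 0.334, against 1.76% ± 0.0445 with the empty vector, a difference of -0.551 percentage points. Both gRNA libraries were below both empty-vector libraries, and the two-sided exact permutation test gave p = 0.33, the smallest possible with 2 against 2. The lists of those Utx KO libraries were also shorter, with 35975 and 29930 peaks with the gRNA and 40477 and 41024 with the empty vector, and the part of list length in the difference was not tested. Utx KO cells with the gRNA were 0.157 points higher than Utx WT cells with the gRNA, which had 25 (0.787%) and 42 (1.32%) open regions and a mean of 1.05% ± 0.378. The groups overlapped and the same exact permutation test gave p = 0.667. The direction reversed in 4 runs that left out 1 library, all such runs having a range of -0.227 to 0.425 points, and when each ChIP list was cut to its upper 50%, at -0.0466 points. The opening in Utx WT cells with a gRNA has its direction fixed by the rule, which put their empty-vector libraries at 0, and over all 11622 closed regions it met 0.344% in both Smarca4 gRNA libraries. Chd4 gRNA libraries opened 2 and 0 regions, where 0 of 3176 allows a share of up to 0.0945%, and both opened 0.0172% of the 11622. The Chd4 gRNA lists were also shorter, with 34429 and 24833 peaks, against 48687 and 41480 with the set A empty vector. The part of list length in these low counts was not tested. The names of the set A lists carry a p-value limit and those of set B do not, so the Smarca4 and Chd4 gRNAs were not compared.

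The border of the rule was gradual. The 393 regions with a PU.1 island or ATAC peak within 1 kb, just inside the rule, were lost in 48.3% of cases, and the 2783 farther away in 61.3%. Just outside it, 178 regions were excluded by 1 library sharing 200 bp or less, and 46.6% of these were lost. Of the 970 regions excluded by 1 library of the 7, 41.4% were lost. In all, 627 regions (19.7%) kept H3K4me1 in both Utx KO libraries and still had neither PU.1 nor an ATAC peak in the Utx KO libraries.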

How the data were processed

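The lists of 22 of 24 samples were read (10 ChIP-seq, 12 ATAC-seq), and the 2 input samples were not analysed here. Per the submitters' processing notes the data were made with SICER, MACS2, Bowtie and Bowtie2 on mm10 (for set A with MACS2 and Bowtie), with no versions or roles named. Each deposited ChIP list gives islands on a 200 bp grid with a whole-number count in column 4. That this count is the reads of the island in its own library was inferred from the format. It is not scaled for depth: ranks and densities were taken within a library, and reads printed for several libraries are raw values whose sizes are not comparable between libraries. The deposited ATAC lists hold positions alone, and their depth is unknown.

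The regions, gene lists and tests were chosen with earlier results of these data known. Islands were merged where they shared 1 base, and overlap means at least 1 shared base. Each region went to its nearest gene, at any distance, among 21788 protein-coding ones of the RefSeq table of GRCm38.p6, the assembly behind mm10, and a region 1 kb or less from an end of a gene, on either side, counts as at a gene end. Reads given for a region are those of all islands touching it, which may reach beyond it. Genes named are those with most regions, most lost or kept regions, the widest or highest-ranked regions, those gaining PU.1 or openness, and up to 2 of each list; 1 of these is not reported here. Shares were compared by exact permutation or sign-flip tests over libraries, two-sided. The 0 limit uses 3 counts and covers counting error only. The region rule was tested on simulated lists. Python 3.11.15, pandas 2.3.3 and scipy 1.17.1 were used.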

Additional observations from a re-analysis of the deposited data

How the results depend on the processing

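The share lost was above that of all regions chosen in the same way under every alternative run. Runs without a PU.1 Utx KO, a Utx KO empty-vector ATAC or a Smarca4 gRNA library could not change it. Those libraries enter neither the rule nor the count of lost regions. With each ChIP list cut to its upper 50%, 1074 regions met the rule, with a median width of 5599 bp, 781 lost (72.7%), 21.4% kept per Utx KO library, 1.82% open, 25.4% at gene ends, and a Smarca4 gRNA difference between Utx KO and Utx WT cells that reversed to -0.0466 points. With all H3K4me1 lists cut to the shortest there were 1916 regions, 3799 bp wide, with 1191 lost (62.2%) and 1.93% open. With 50% of a region to be covered by an interval, 62.4% were lost, 0.206% had PU.1, 0% were open and the gRNA difference in Utx KO cells reversed to 0.116 points. Median ATAC peaks in the Utx KO lists were 471 to 511 bp wide and median PU.1 islands 599 bp, against regions of 2799 bp. The PU.1 share, the open share and the gRNA difference under this setting were thus limited by size and decide nothing. Excluding PU.1 only where 2 libraries held it gave 57.7% lost and 12.8% with PU.1 in Utx KO cells. The open share was 1.83% with a 1 kb margin and 2.10% with set B alone.

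Leaving out 1 library at a time gave 3176 to 7357 regions, widths of 1799 to 2999 bp, 1895 to 4198 lost (57.1% to 70.7%), 25.5% to 36.7% kept in Utx KO cells, 6.76% to 10.2% with PU.1, 1.09% to 2.88% open, 15.9% to 22.9% at gene ends, -0.923 to -0.272 points for the gRNA in Utx KO cells and -0.227 to 0.425 points between genotypes with the gRNA; the last reversed in 4 of these. The cause was not tested. With same-numbered libraries as pairs (replicate block) the differences were -0.551 and 0.157 points, with p = 0.5 for the first and p = 1 for the second by exact sign flip, and the labels name no shared source. With 2 libraries a group no test here can pass 0.05, and peak lists show neither depth nor signal below the callers' limits.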
